A study of Mus musculus with 9 samples.

Results

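The genes described here are 7 members of the TREM receptor family and its signalling adaptors: the receptors Trem1, Trem2, Trem3, Treml2 and Treml4, and the adaptors Tyrobp, which encodes DAP12, and Hcst, which encodes DAP10. They were taken by name, with earlier results of these data known, and all 7 were measured among the 19937 genes of the arrays. RNA came from Ly6C+ CD115+ bone marrow cells of C57Bl/6 mice, 8 weeks old and at steady state, for which the labels name no mutant allele and no treatment. Cells without lineage markers and MHCII, and with SIRPα, were divided by Flt3 and CD11c into R1 monocytes (Flt3- CD11c-), R2 monocytes (Flt3+ CD11c-) and R3 (Flt3+ CD11c+), which the study names pre-DCs. Each population had 3 arrays, 1 for each of 3 label dates, and a shared date gives a shared replicate number. The sources used here do not say whether the dates are separate mice or whether mice were pooled, and each p-value rests on array-to-array variation that could be technical as much as biological. In bulk RNA, fewer cells of a type and less RNA per cell cannot be told apart.

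TREM receptors are immunoglobulin-fold proteins of myeloid cells. TREM1, TREM2 and TREM3 have almost no signalling tail of their own: a charged residue in the membrane holds them to DAP12, whose ITAM motif is phosphorylated by Src family kinases and then recruits the kinase SYK. DAP10 has no ITAM and carries a motif that recruits PI3-kinase. TREM1 amplifies inflammatory responses of monocytes and neutrophils, while TREM2 binds lipids and lipoproteins and is best known from macrophages, osteoclasts and microglia.

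The promoters of 4 of the 7 genes were held by the RefSeq table (GRCm38.p6), and the 250 bases upstream of each gene start are shown so that the genes called lower in R3 can be set beside those that were not called. Capitals mark AGGAAG, or CTTCCT on the other strand, the core bound by Ets factors such as PU.1, the master regulator of myeloid cells. Trem2 (chr17:48346151-48346400, + strand) and Hcst (chr7:30419855-30420104, - strand) are 2 of the 3 genes whose levels were lower in R3. No window was held for Trem3, which was also lower, or for Tyrobp and Treml2, which were not called. Trem1 (chr17:48232489-48232738, + strand) and Treml4 (chr17:48264045-48264294, + strand) are the pair for which no difference was called, and Trem1 is not shown to be above background.
Trem2: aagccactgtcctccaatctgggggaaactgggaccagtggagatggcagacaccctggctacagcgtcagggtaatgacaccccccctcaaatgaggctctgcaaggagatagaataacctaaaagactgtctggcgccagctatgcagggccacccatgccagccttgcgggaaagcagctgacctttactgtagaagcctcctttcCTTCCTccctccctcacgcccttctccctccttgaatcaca
Hcst: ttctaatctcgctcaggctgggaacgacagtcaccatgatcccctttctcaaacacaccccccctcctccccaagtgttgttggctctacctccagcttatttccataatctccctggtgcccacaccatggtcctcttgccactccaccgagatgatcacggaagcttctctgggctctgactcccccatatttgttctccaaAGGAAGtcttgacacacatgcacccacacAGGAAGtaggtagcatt
Trem1: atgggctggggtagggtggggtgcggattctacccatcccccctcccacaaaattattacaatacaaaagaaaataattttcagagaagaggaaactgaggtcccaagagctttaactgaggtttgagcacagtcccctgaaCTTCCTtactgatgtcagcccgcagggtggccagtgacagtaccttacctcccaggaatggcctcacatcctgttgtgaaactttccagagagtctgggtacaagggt
Treml4: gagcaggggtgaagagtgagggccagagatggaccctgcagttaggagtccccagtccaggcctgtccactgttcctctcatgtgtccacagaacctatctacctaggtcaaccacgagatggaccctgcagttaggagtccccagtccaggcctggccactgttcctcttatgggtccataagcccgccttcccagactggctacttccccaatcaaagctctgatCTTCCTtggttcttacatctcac
Each window held the core once except that of Hcst, which held it 2 times. Over the full 300-base windows, which reach 50 bases past the gene start, 35.4% of 32851 RefSeq promoters held at least 1 core on either strand and 8.62% held 2 or more. The C/EBP motif TTGCNNAA, searched on both strands, was found in 10.8% of the windows and, among these 4, in that of Trem2 only, 23 bases past the start. A match is a run of letters and not a measured site.

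The sort of R3 was visible in the arrays, and that of R2 from R1 was less clear. The log2 level of Itgax (CD11c) averaged 5.21 in R1, 5.84 in R2 and 10.78 in R3, and that of Flt3 averaged 7.23, 7.91 and 11.04. Flt3 was not called in R2 versus R1 (log2 difference 0.68, adjusted p = 0.281 in limma). Its arrays overlapped there, at 6.74 to 7.78 in R1 and 7.70 to 8.02 in R2, though R2 was above R1 on each date, by 0.95, 0.24 and 0.85. At an unadjusted p under 0.05, limma passed all 4 measured sort genes in R2 versus R1 and the methods' test 2. These counts stand beside 10.7% and 7.46% of all genes, and none of the sort genes was called. Of 8 dendritic cell markers, limma called only Clec9a there, higher in R2 (log2 difference 1.87, adjusted p = 0.0132). Csf1r, which encodes CD115, averaged 11.25, 10.98 and 10.74. No gene of the NK cell, T cell, B cell and erythroid marker lists was called by limma in any comparison. At an unadjusted p under 0.05 at most 1 gene of a list passed, beside a limma share of 10.7% to 24.1% of all genes. Of these 20 genes, 19 lay between 3.14 and 6.24 on the R3 arrays, a range taken here as that of genes of absent cells. The exception, set aside after its values were seen, was Cd79b at 8.10 to 8.35. The neutrophil list of 11 genes stood apart in R3, where its summed linear intensity was 17572 in replicate 1, 1703 in replicate 2 and 7626 in replicate 3, against 7833 to 11825 in R1 and 9826 to 12915 in R2. The brightest genes of the list were S100a8 and S100a9, at means of 12.21 and 11.38 in R1, and the sum mostly follows them. Camp and Ngp were at 10.79 and 10.73 in R3 replicate 1 and at 8.77 and 9.03 in replicate 3. Both, and Ltf, lay above every R1 and R2 array there, and within the R1 range in replicate 2. In replicate 3, S100a8 and Cebpe lay below every R1 and R2 array, and S100a9 and Lcn2 within the R1 range. Of the 11 genes only Cebpe was called, lower in R3 in both comparisons. The summed intensity of 10 bone marrow macrophage genes was 1364 to 1404 in R1, 964 to 1006 in R2 and 654 to 680 in R3. This sum followed Adgre1 (F4/80), which fell by 1.99 on the log2 scale from R2 to R3. Adgre1 and Axl were also lower in R3 than in R1. The other macrophage genes C1qa, C1qb, C1qc, Vcam1, Mertk, Spic and Slc40a1 were at log2 values of 3.84 to 6.03 on every array and were not called, whereas Cd163 was higher in R3. Of 8 markers of Ly6C-low monocytes, 2 were higher (Cx3cr1, Spn) and 1 lower (Cebpb) in R3 than in R2. Against R1, Spn was higher and 4 were lower, Nr4a1, Itgal, Pou2f2 and Cebpb. Their summed intensity was 5779 to 6437 in R1, 4731 to 5140 in R2 and 5438 to 6394 in R3. The part of these 3 lists in the results that follow was not tested. Results given without an array cannot test it, because the arrays that remain carry these genes too.

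Trem2, Trem3 and Hcst were lower in R3 than in R2 and R1, while Trem1, Treml2, Treml4 and Tyrobp were not called. A gene was called at an adjusted p under 0.05 in limma, adjusted over all 19937 genes. In R3 versus R2, 3 of the 7 genes were called, all lower and none higher, beside 9.55% of all genes called in either direction, 4.69% lower and 4.85% higher. In R3 versus R1 the count was again 3 lower and none higher, beside 13.5% of all genes called, 7.02% lower and 6.49% higher. In R2 versus R1 limma called none of the 7, beside 0.391% of all genes. At an unadjusted p under 0.05, limma and the unpaired test of the study's methods each passed 1 of the 7, Hcst, beside 10.7% and 7.46% of all genes. The R3 comparisons share the R3 arrays. The share called is larger among brighter genes. With limma limited to the 9968 genes above the median level, which leaves out Trem1, 3 members were again lower in each R3 comparison. That count stands beside 20% of these genes called in R3 versus R2 and 28.6% in R3 versus R1. The median difference of the 7 genes was -0.32 in R3 versus R2, -0.47 in R3 versus R1 and -0.06 in R2 versus R1, and that of all genes was -0.01, -0.02 and -0.02.

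**Figure D1:**
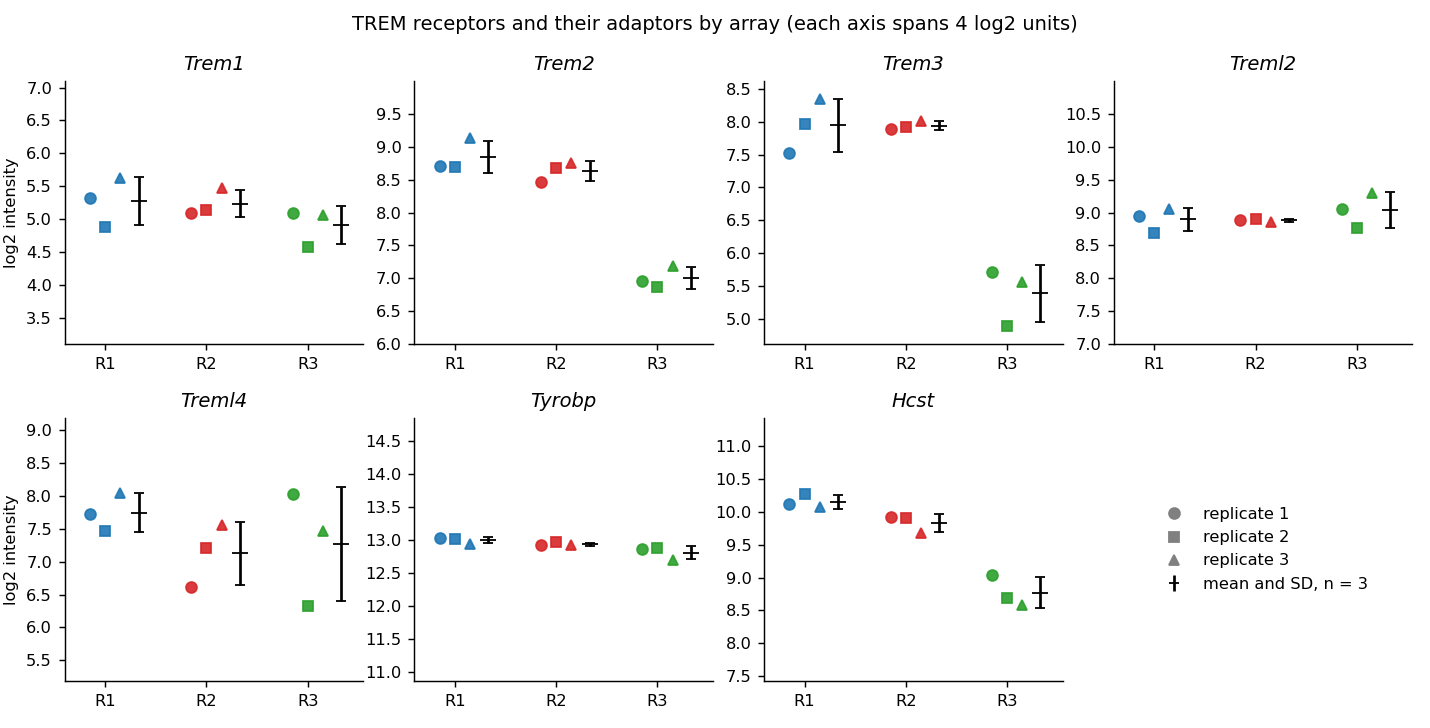
Log2 intensity of each of the 7 genes (vertical axes, all spanning the same range) on each array of R1, R2 and R3; marker shape gives the replicate, and bars give the mean and SD over 3 arrays. The R3 arrays lie clear of R1 and R2 for Trem2, Trem3 and Hcst, lie just below them for Tyrobp, and overlap them for Trem1, Treml2 and Treml4.

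Arrays of R3 lay wholly below those of R2 for 4 of the 7 genes, Trem2, Trem3, Tyrobp and Hcst, beside 12.2% of all genes. The same 4 lay wholly below R1, beside 12.9% of all genes. Between R2 and R1, only Hcst had all R2 arrays below all R1 arrays, beside 7.99% of all genes.

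Tyrobp, the adaptor on which most of these receptors depend, was bright in every population. Its log2 level in replicates 1, 2 and 3 was 13.03, 13.01 and 12.94 in R1. In R2 it was 12.92, 12.96 and 12.93, and in R3 it was 12.86, 12.88 and 12.69. The 3 R3 arrays were the lowest of the 9, by a small margin. The difference was -0.13 between R3 and R2 (95% confidence interval -0.29 to 0.03, adjusted p = 0.401) and -0.18 between R3 and R1 (-0.34 to -0.03, adjusted p = 0.138). A mean-variance trend in the same limma fit gave an adjusted p of 0.035 for R3 versus R1 and so would call it. R2 and R1 differed by -0.06 (-0.22 to 0.10, adjusted p = 0.847).

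Hcst, the DAP10 adaptor, was lower in R3. Its log2 level was 10.12, 10.27 and 10.07 in R1, 9.92, 9.91 and 9.67 in R2, and 9.04, 8.69 and 8.58 in R3. The populations did not overlap, and the order R1, R2, R3 held on each date. Hcst was 2.09-fold lower in R3 than in R2 (log2 difference -1.06, SE 0.13, adjusted p = 0.000592) and 2.61-fold lower than in R1 (-1.38, adjusted p = 9.3e-05). The difference of -0.32 between R2 and R1 had an interval of -0.60 to -0.04 before adjustment and was not called (adjusted p = 0.39). With the methods' test and Benjamini-Hochberg adjustment the R3 versus R2 difference had a p of 0.0541 and was not called.

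Set side by side within the same arrays, Hcst fell further than Tyrobp by 0.93 on the log2 scale from R2 to R3 and by 1.20 from R1 to R3, with no overlap between the arrays of the populations. An exact two-sided permutation test of each gave p = 0.1, the smallest that 3 arrays against 3 allow, and 0.1 after adjustment over the 4 pairs of this kind. The design could therefore not pass 0.05 here. The Tyrobp probe set was brighter than those of 99.8% of genes, and whether this limits its measured differences was not tested.

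Trem2 was lower in R3 than in either monocyte population. Its log2 level was 8.71, 8.69 and 9.13 in R1, 8.46, 8.67 and 8.75 in R2, and 6.96, 6.87 and 7.18 in R3. Every R3 array lay below every R2 and R1 array, and R1 and R2 overlapped. Trem2 was 3.08-fold lower in R3 than in R2 (log2 difference -1.62, SE 0.14, adjusted p = 8.5e-05) and 3.58-fold lower than in R1 (-1.84, adjusted p = 2.83e-05). R2 and R1 differed by -0.22 (95% confidence interval -0.53 to 0.10, adjusted p = 0.668). The Trem2 difference in R3 lay between -1.71 and -1.51 against R2 and between -1.93 and -1.70 against R1 over all 24 alternatives, and was called in each.

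Trem3, a DAP12-coupled receptor that mouse macrophages express, showed the largest difference of the 7 genes. Its log2 level was 7.53, 7.97 and 8.34 in R1, 7.88, 7.92 and 8.01 in R2, and 5.72, 4.90 and 5.56 in R3. R1 and R2 overlapped, and all R3 arrays lay below 6.21, the median over all genes of the mean log2 level. The R3 values also lay within the range of the absent cell markers given above, so they are not shown to be above background and the folds may understate the difference. Trem3 was 5.85-fold lower in R3 than in R2 (log2 difference -2.55, SE 0.24, adjusted p = 0.000134) and 5.87-fold lower than in R1 (adjusted p = 0.000103). R2 and R1 differed by -0.01 (95% confidence interval -0.54 to 0.53, adjusted p = 0.996). Within R3, Trem3 was highest in replicate 1 and lowest in replicate 2, the order of the neutrophil sums. Without R3 replicate 1 the difference from R2 was -2.71 (adjusted p = 0.0004), and without R3 replicate 2 it was -2.30 (adjusted p = 0.000315). With the methods' test and Benjamini-Hochberg adjustment, R3 versus R1 had a p of 0.0511 and was not called. Trem3 fell further than Trem2 by 0.92 from R2 to R3 and by 0.71 from R1 to R3, again without overlap (exact two-sided permutation p = 0.1 each, the smallest possible, so the test could not pass 0.05).

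Treml4, a TREM-like receptor known for binding dying cells and for a role in TLR7 responses, varied more between arrays than between populations. Its log2 level was 7.72, 7.46 and 8.05 in R1, 6.62, 7.21 and 7.56 in R2, and 8.03, 6.33 and 7.46 in R3. The R3 arrays spanned those of R2 and reached from below R1 to within its range. On the 3 dates in turn R3 stood above R2 by 1.42, then below it, at -0.88 and -0.10. The fitted difference of R3 from R2 was 0.14 (95% confidence interval -0.76 to 1.05, adjusted p = 0.922). R3 differed from R1 by -0.47 (-1.38 to 0.43, adjusted p = 0.557). R2 was below R1 on each of the 3 dates, by 0.62 on average, with an interval of the difference from -1.52 to 0.29 (adjusted p = 0.672). R3 replicate 1, highest in Treml4, was also highest in the neutrophil sum, and replicate 2 was lowest in both. Without replicate 1 of R3, R3 minus R2 was -0.24, and without replicate 2 it was 0.62. R3 minus R1 was -0.85 without the former and 0.000219 without the latter, and none of these was called.

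Treml2, a TREM-like receptor of myeloid and B cells, was not called. Its log2 values were 8.94, 8.69 and 9.05 in R1, 8.89, 8.90 and 8.85 in R2, and 9.05, 8.76 and 9.30 in R3. The populations overlapped. R3 differed from R2 by 0.16 (95% confidence interval -0.15 to 0.47, adjusted p = 0.659), from R1 by 0.14 (-0.17 to 0.45, adjusted p = 0.614), and R2 from R1 by -0.01 (adjusted p = 0.986). These intervals do not reach the size of the Trem2 difference in either direction.

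Trem1 was dim in all populations. Its log2 values were 5.32, 4.89 and 5.62 in R1, 5.10, 5.13 and 5.48 in R2, and 5.10, 4.58 and 5.07 in R3. They overlapped and lay below the median of all genes. All of them also lay within the range of the absent cell markers, so Trem1 is not shown to be above background in any population. R3 differed from R2 by -0.32 (95% confidence interval -0.79 to 0.14, adjusted p = 0.49), from R1 by -0.36 (-0.82 to 0.10, adjusted p = 0.348), and R2 from R1 by -0.04 (adjusted p = 0.971). Dim probe sets carry background that compresses differences, so a change of this gene can be understated. Within R3, replicate 2 was the lowest here too. Each probe set has its own brightness, so a position among all genes describes the probe set and not the amount of RNA.

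**Figure D2:**
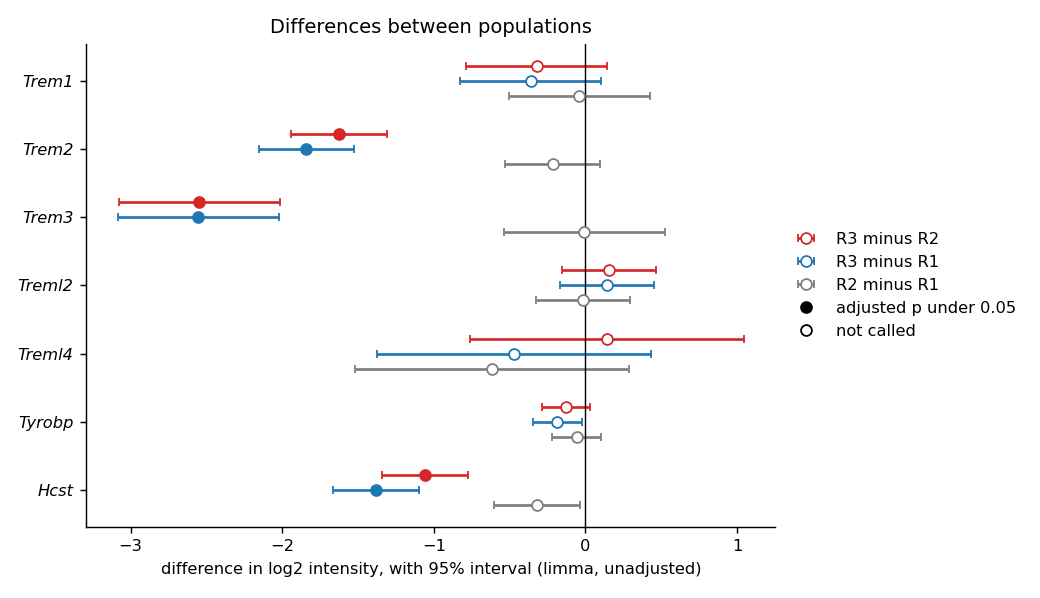
Differences in log2 intensity for the 7 genes (horizontal axis) between R3 and R2, R3 and R1, and R2 and R1, with unadjusted 95% confidence intervals; filled points have an adjusted p under 0.05 in limma. Only Trem2, Trem3 and Hcst have filled points, all below 0 and all in the R3 comparisons, and the Treml4 intervals are the widest.

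By position, the lower genes were not next to each other. RefSeq places the protein-coding genes of the chromosome 17 cluster in the order A530064D06Rik, Trem1, Trem3, Treml4, Treml2, B430306N03Rik, Trem2, Treml1 and Nfya. The neighbours that are not among the 7 were chosen after the values of the members were known. Between Trem3 and Trem2, which were lower in R3, lay Treml4, Treml2 and B430306N03Rik, none of them called. The nearest to a call was B430306N03Rik in R3 versus R1, at -0.50 (95% confidence interval -0.83 to -0.16, adjusted p = 0.0591). Treml1, a TREM-like receptor of platelets that borders Trem2, differed by -0.16 in R3 versus R2 (adjusted p = 0.334). Nfya, which follows Treml1 and encodes a subunit of the CCAAT-binding factor NF-Y, was higher in R3 by 0.38 than in R2 (adjusted p = 0.0347) and by 0.54 than in R1 (adjusted p = 0.00446). A530064D06Rik, at the other end, was lower in R3 than in R1 by 1.52 on the log2 scale (adjusted p = 0.00298) and was not called against R2. On chromosome 7, Tyrobp and Hcst are adjacent, between Lrfn3 and Nfkbid, and Hcst was the only gene of these 4 that was called.

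**Figure D3:**
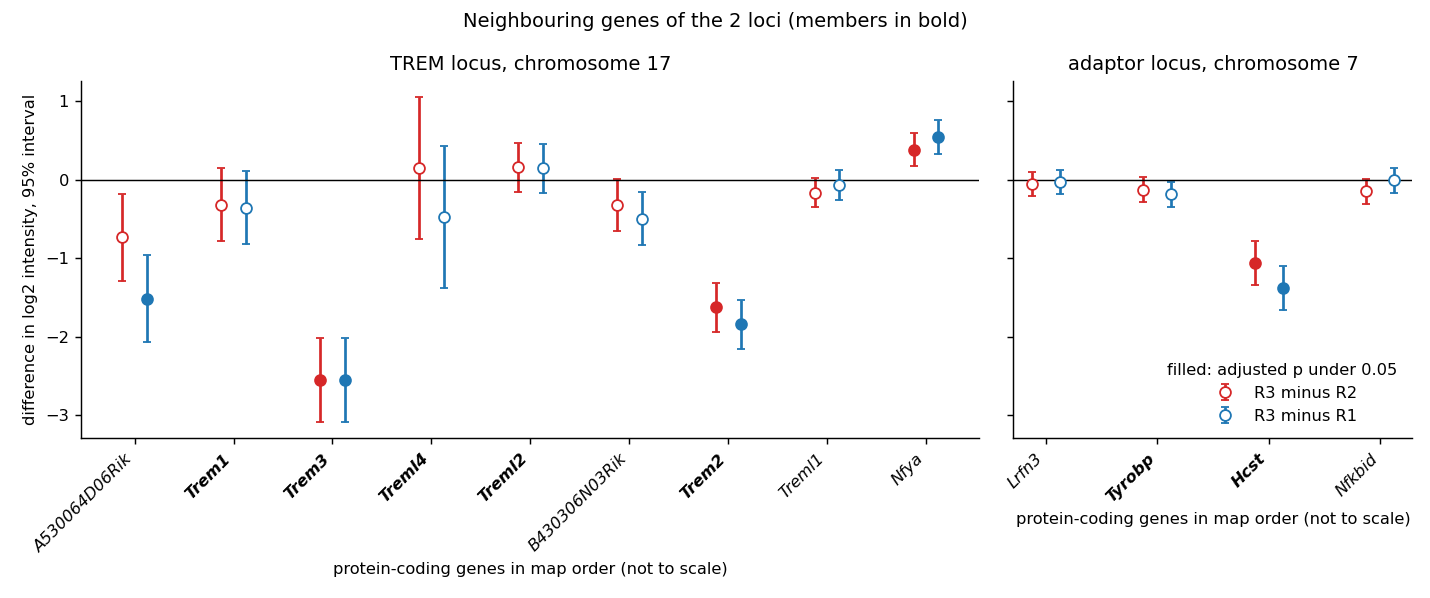
Differences in log2 intensity (vertical axis, with unadjusted 95% confidence intervals) between R3 and R2 and between R3 and R1 for the genes of both loci in map order, not to scale; filled points have an adjusted p under 0.05. Trem3 and Trem2 are called on either side of 3 genes that are not called on chromosome 17, and Hcst is called beside Tyrobp, which is not, on chromosome 7.

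The other genes of the pathway were followed in whole lists, chosen with earlier results of these data known, and 67 of 74 listed genes were measured. In R3 versus R2, 26 of the 67 were called, 11 higher and 15 lower, beside 9.55% of all genes. In R3 versus R1, 29 were called, 10 higher and 19 lower, beside 13.5% of all genes. The share called is larger among brighter genes here too. Limited to genes above the median level, limma called 11 pathway genes higher and 14 lower in R3 versus R2, beside 20% of the genes tested. In R3 versus R1 it called 9 higher and 18 lower, beside 28.6%. The counts of each list below are to be read beside both kinds of share. In R2 versus R1 limma called none of the 67, though 11 had an unadjusted p under 0.05 and the methods' test gave 7 such genes, shares that are to be read beside 10.7% and 7.46% of all genes. With array weights limma called 1. Of the 7 other ITAM adaptor chains limma called 0 in either R3 comparison, and 0 also at an unadjusted p, where the methods' test gave 1 in R3 versus R2. At an unadjusted p under 0.05 limma passed 19.4% of all genes in R3 versus R2 and 24.1% in R3 versus R1. The methods' test passed 17.4% in R3 versus R2. Most of these are chains of T and B cell receptors, and Cd3d, Cd3e, Cd3g and Cd79a were dim on all arrays, so this count says little beyond Fcer1g. Fcer1g, the common Fc receptor chain, had log2 levels of 12.87 ± 0.06 in R1, 12.75 ± 0.07 in R2 and 12.81 ± 0.02 in R3 (SD, n = 3).

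Of 12 other receptors that pair with DAP12 or DAP10, 8 were called in R3 versus R2, 3 of them higher and 5 lower, and 7 in R3 versus R1, 2 higher and 5 lower. Clec5a, a DAP12-coupled lectin receptor, was 13.1-fold lower in R3 than in R2 (adjusted p = 5.65e-05). Its log2 level was 9.33, 9.40 and 9.17 in R2 and 5.45, 4.99 and 6.34 in R3, with R1 at 8.72 to 9.24. All but 1 of the R3 arrays lay within the range of the absent cell markers, so this fold too may understate the difference. Cd300lb, an activating receptor of the CD300 family, was 2.62-fold lower (adjusted p = 1.17e-05), with R3 arrays at 6.80 to 6.86 and R2 arrays at 8.11 to 8.36. Both genes were called against R1 as well.

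Siglech, a DAP12-coupled receptor of plasmacytoid dendritic cells and their precursors, went the other way. It stood at 5.84, 6.04 and 5.57 in R2 and at 10.03, 10.05 and 9.32 in R3, a 15.8-fold difference (adjusted p = 4.38e-06), with R1 at 5.38 to 5.78. Here the R1 and R2 values were in the range of the absent cell markers. It is also on the dendritic cell marker list, of which 7 of 8 genes were higher in R3. Klrk1, which encodes NKG2D, the classical partner of DAP10, was 2.62-fold higher in R3 than in R2 (adjusted p = 0.0231), the opposite direction from Hcst. Klrk1 stood at 6.69, 6.69 and 5.87 in R2 and at 7.85, 8.19 and 7.38 in R3. That call was lost without R2 replicate 3 (adjusted p = 0.0885), R3 replicate 1 (0.0757) or R3 replicate 2 (0.084), with log2 differences of 1.12 to 1.37.

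Pilrb1 and Pilrb2, neighbouring activating receptor genes whose probes may share signal, were both lower in R3. Against R1 the folds were 3.85 (adjusted p = 0.00133) and 3.72 (adjusted p = 0.00049). Against R2 the log2 differences were -1.33 (adjusted p = 0.0144) and -1.36 (adjusted p = 0.00448). The Pilrb1 call against R2 was lost without R2 replicate 2 (adjusted p = 0.0501) or R2 replicate 3 (0.0683).

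**Figure D4:**
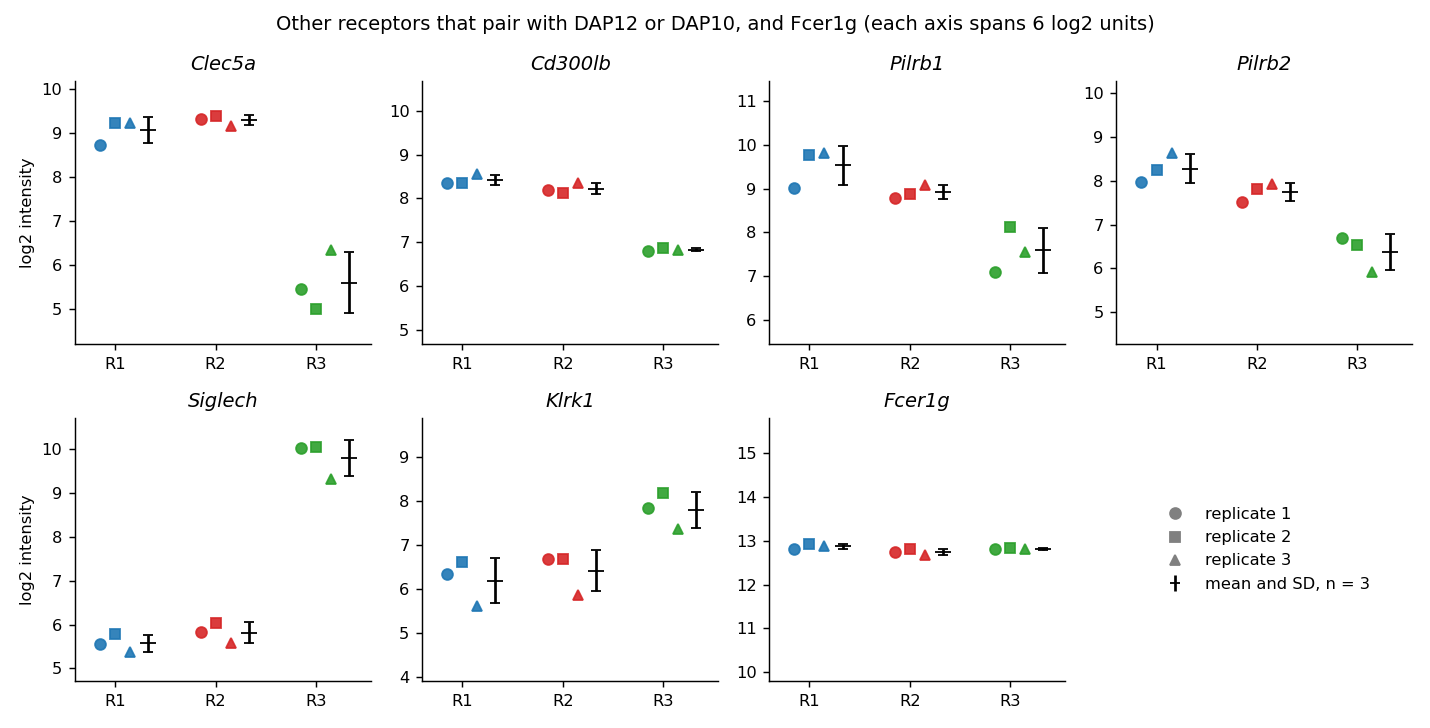
Log2 intensity (vertical axes, all spanning the same range) of 6 receptors that pair with DAP12 or DAP10, and of Fcer1g, on each array of R1, R2 and R3, with mean and SD over 3 arrays. Clec5a, Cd300lb, Pilrb1 and Pilrb2 are lower in R3, Siglech and Klrk1 are higher, and Fcer1g is not called.

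Among 8 kinases of ITAM signalling, 1 was higher and 2 were lower in both R3 comparisons. Fyn, a Src family kinase, stood at 7.37 to 7.69 in R2, at 7.04 to 7.51 in R1 and at 9.59 to 9.96 in R3, and was 4.69-fold higher in R3 than in R2 (adjusted p = 1.53e-05). Fgr, a Src family kinase of myeloid cells, was 2.07-fold lower (adjusted p = 0.00238), and Tec 1.85-fold lower (adjusted p = 0.00357). Syk, the kinase that docks on the phosphorylated ITAM, was not called: it differed by -0.09 in R3 versus R2 (adjusted p = 0.763) and by -0.27 in R3 versus R1 (adjusted p = 0.126).

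Of 22 signal relays downstream, R3 had 5 higher and 3 lower when set against R2, and 5 higher and 4 lower when set against R1. The related scaffold proteins moved in opposite directions: Lcp2, which encodes SLP-76, was 2.53-fold lower in R3 than in R2 (adjusted p = 0.000622), and Blnk, which encodes the B cell counterpart SLP-65, was 3.32-fold higher (adjusted p = 0.000438). Lcp2 ranged from 10.68 to 10.75 in R2 and from 9.07 to 9.79 in R3. Blnk ranged from 4.88 to 5.20, within the range of the absent cell markers, in R2 and from 6.31 to 7.07 in R3. Nfatc2, a calcium-driven transcription factor, was 2.60-fold higher (adjusted p = 0.000201), and Pik3r1, a regulatory subunit of PI3-kinase, was 1.62-fold higher (adjusted p = 0.00551).

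Of 12 genes that restrain ITAM signalling, 2 were higher and 5 lower in R3 against either population. With the label date as a block, Cblb, a ubiquitin ligase gene and 1 of the 2 higher ones, was no longer called against R2 (adjusted p = 0.0684) or R1 (adjusted p = 0.0607). Its call against R2 was also lost without R2 replicate 1, 2 or 3 or R3 replicate 1 or 2 (adjusted p = 0.0835 to 0.115). Its call against R1 was lost without replicate 1 or 2 of R1, R2 or R3 (adjusted p = 0.0513 to 0.0963). Lilrb4a, an inhibitory receptor with ITIM motifs, was 7.56-fold lower in R3 than in R2 (adjusted p = 1.17e-05), with R2 arrays at 10.65 to 10.96 and R3 arrays at 7.41 to 8.09. The inhibitory receptor gene Pirb and the docking protein genes Dok1 and Dok3 had log2 differences of -0.64, -0.69 and -0.72 between R3 and R2, all called. The Dok1 call against R2 was lost without R2 replicate 1, R2 replicate 3 or R3 replicate 1 (adjusted p = 0.0675 to 0.0727).

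None of the 5 genes for TREM ligands and sheddases was called by limma in R3 versus R2, where the largest differences were -1.14 for Apoe and -0.75 for Pglyrp1. At an unadjusted p under 0.05 limma passed 2 of them there and the methods' test 1, beside 19.4% and 17.4% of all genes. In R3 versus R1, 3 were lower. Apoe, whose product is a TREM2 ligand, was 3.64-fold lower (adjusted p = 0.0103). Adam10, a protease that sheds TREM2, was 1.35-fold lower (adjusted p = 0.00844). Pglyrp1, whose product is a TREM1 ligand and is stored in neutrophil granules, was 2.74-fold lower (adjusted p = 0.0206). Its R3 values were 9.28, 7.68 and 8.37, in the order of the neutrophil sums, and the call was lost without R1 replicate 1 (adjusted p = 0.0573), R1 replicate 2 (0.0788) or R3 replicate 3 (0.0617).

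**Figure D5:**
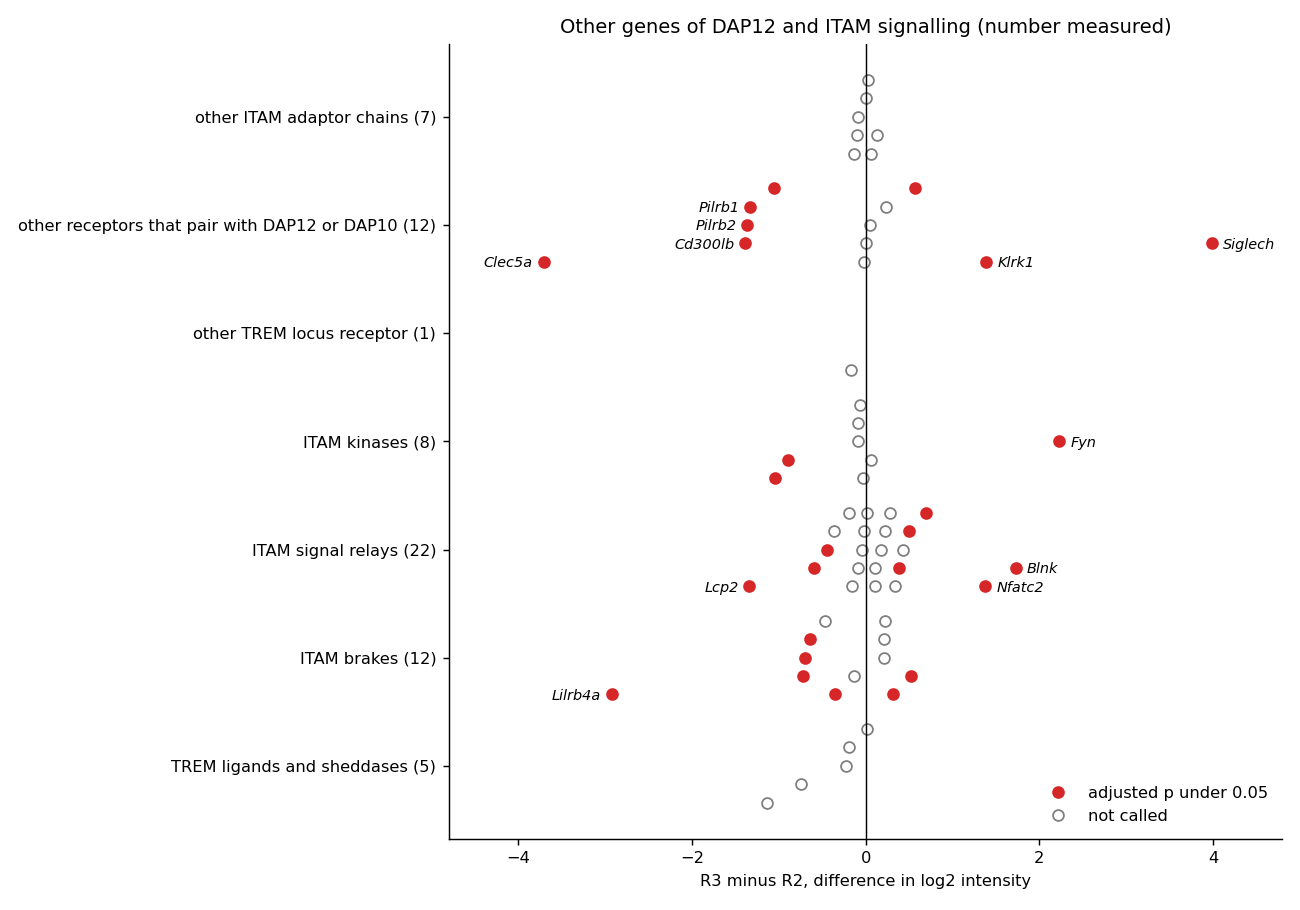
Difference in log2 intensity between R3 and R2 (horizontal axis) for each measured pathway gene, by list, with the number measured; filled points have an adjusted p under 0.05 in limma, and those beyond 1.3 in either direction are named. Called genes lie on both sides of 0 among the partner receptors, kinases and relays, and the other adaptor chains lie close to 0 with none called.

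The genes of most similar pattern were found as those with the smallest root mean square difference from each member over the 9 arrays, after each gene was centred on its mean log2 level. The 9 arrays share their populations and dates, so this is a description. For Trem2 they were Pgd (0.101), an enzyme of the pentose phosphate pathway, Cebpb (0.105), a transcription factor of monocytes and macrophages, and Ctsc (0.116), a lysosomal protease, against the spread of Trem2 around its own mean of 0.837. Cebpb averaged 9.17 in R1, 8.85 in R2 and 7.33 in R3. For Hcst they were Fyb (0.102), an adaptor protein that binds SLP-76, Abhd5 (0.123) and Abcc5 (0.126), against its own spread of 0.606.

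For Trem3 they were Sort1 (0.188), a sorting receptor, Pstpip2 (0.227) and Pygl (0.232), the liver form of glycogen phosphorylase, against a spread of 1.24. Trem2 lay nearer to Hcst (0.356) than to Trem3 (0.449), which ranked 179 and 331 among all genes seen from Trem2. For Tyrobp the most similar genes were Gtf2h1, Eml6 and Snap47, and for Trem1 Ppp1r2-ps7, Ldah and Commd6. For Treml2 they were Trim72, Ric8a and 4930432K21Rik, and for Treml4 Trmt12, Hsph1 and Xxylt1. The nearest gene lay at 0.0349 for Tyrobp, 0.127 for Trem1, 0.0637 for Treml2 and 0.309 for Treml4. The spreads of these members were 0.0946, 0.292, 0.17 and 0.554. Relative to their spreads, all of them were matched more loosely than Trem2, Trem3 and Hcst, and Treml4 the most loosely.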

How the data were processed

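Total RNA, 1 ng per array, was amplified with NuGEN Ovation Pico WTA V2 and hybridised, 3 arrays per population, on the Affymetrix whole-transcript design Mouse Gene 1.0 ST. The deposited table holds linear intensity values for 34760 probe sets, which the authors processed; they name GenePattern for their analysis, and the background correction, summarization and normalization are not given in the sources used here. Array medians ran from 58 to 64.7, and the number of arrays limits the precision. Amplification from so little RNA can add spread to dim genes. Platform annotation gave 21640 probe sets with 1 gene, 1321 with several and 11799 with none. Values were log2-transformed, and a gene took its probe set of highest mean among those naming 1 gene only, which left 19937 genes. limma 3.58.1 (R 4.3.3; lmFit, eBayes) was fitted over all 9 arrays with no block and 6 residual degrees of freedom, with Benjamini-Hochberg adjustment over all genes and calls at 0.05. The fit was tested on simulated data.

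The members and lists were chosen with earlier results of these data known. Named genes were the 7 members, the 3 most similar genes of each, called markers and, per pathway list and R3 comparison, up to 4 called genes of largest change. Replicate numbers pair arrays by label date; deviations of same-date arrays correlated at -0.02 to 0.15. Alternatives changed scaling, filter, probe sets, offset, block, prior, weights, samples and test. Pairs of members were compared by exact permutation tests. Motifs were counted in RefSeq promoter windows.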

Additional observations from a re-analysis of the deposited data

How the results depend on the processing

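For the 7 genes in 3 comparisons, 474 of 501 values under the alternatives kept their direction and their side of the threshold, 2 lost and 3 gained a call and 22 changed sign. Every change of sign was in a difference that was not called. Treml4 ranged from -0.49 to 0.66 in R3 versus R2 and from -0.86 to 0.000219 in R3 versus R1 when arrays were left out. In R2 versus R1, leaving out arrays gave Trem1 -0.23 to 0.13, Trem3 -0.21 to 0.19 and Treml2 -0.12 to 0.0768, and array weights gave Trem1 0.0207 and Treml2 0.0545. The filter at the median level removed Trem1.

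The count of members called in R3 was 3 against either population, and a replicate block by label date left it at 3 in each. The methods' test, once adjusted, gave 2 in each, beside 4.48% and 3.3% of all genes. For R3 versus R1 it gave 4 without adjustment, beside 16.8% of all genes, and the mean-variance trend also gave 4, beside 13.3%. In R2 versus R1 the methods' test at an unadjusted p called 1 member and 7 pathway genes, beside 7.46% of all genes, and array weights called 1 pathway gene. The methods' test with adjustment called 10 pathway genes in R3 versus R2 and 9 in R3 versus R1. Leaving out arrays gave 9 to 27 pathway genes in R3 versus R2 and 14 to 28 in R3 versus R1, the lowest of each without the 3 arrays of replicate 2, and in R3 versus R2 17 without replicate 1 and 16 without replicate 3; leaving out a date removes an array of every population, and the share of all genes called fell as well, to 3.8% and 5.6% without replicate 2.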
